A study of Homo sapiens with 40 samples.

Results

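The pellet extract (PE) is the last fraction of a sequential extraction of H1 cells, a line of human embryonic stem cells, and holds what the earlier buffers left behind. The extract was compared between day 5 and day 3 of differentiation towards mesoderm, with 2 libraries a day, so that 4 of the 40 samples of the series carry the comparison. Of the 57939 genes in the total RNA table, 13148 had a mean of 5 TPM or more over these 4 libraries and were tested. Each PE change was set against the change of whole, unfractionated cells (INPUT) over the same days, again with 2 libraries a day. All groups are wild-type H1 cells. At day 5 the cells had been through the whole protocol, in IMDM with serum, with BMP4 at 10 ng/mL for the first day and bFGF at 2.5 ng/mL for the next 4 days; day 3 cells were taken part of the way through. A kit with a series of buffers gave the cytoplasmic (CE), membrane (ME), soluble nuclear (SNE) and chromatin-bound nuclear (CBNE) extracts before the pellet, and the chromatin-bound step used micrococcal nuclease. The protocol calls the pellet a cytoskeletal extract. The cells are 1 line, and the labels do not say whether replicates were separate cultures, so p-values measure the spread between these libraries, which may be technical.

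BMP4 and the WNT and NODAL signals it induces drive human pluripotent cells through a primitive-streak-like state, marked by TBXT and MIXL1, into mesoderm, marked by genes such as HAND1 and APLNR. The same signals can also lead these cells to amnion-like or trophoblast-like fates. An insoluble pellet after detergent, salt and nuclease keeps RNA that is tied to the cytoskeleton, the nuclear matrix, nucleoli or large particles, and it also keeps what incomplete lysis leaves behind.

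The PE libraries were shallow. Reads rebuilt from the deposited values came to 4032783 and 7862412 at day 5 and to 3588432 and 3152342 at day 3, whereas the 4 INPUT libraries held 14295308 to 19105984. Shallower still were PE at day 0 (701897 and 474013 reads) and CBNE (1551774 and 1835687 at day 3, 380096 and 499370 at day 5). Their values below carry that limit. For a gene spanning 1 kb, 1 read was worth 3.37 to 7.25 TPM in PE at days 5 and 3 and 0.980 to 1.16 TPM in INPUT. The spread between replicates was wider in PE, and the fit gave PE a variance 8.20 times that of INPUT. The TPM values were found to be scaled by the genomic span of each gene, introns included, so a level is per kilobase of span. Changes are differences of log2(TPM + 1), and a call means an adjusted p under 0.05 (limma, Benjamini-Hochberg over all tested genes) and at least a 2-fold change. In bulk RNA, fewer cells of a type and less RNA per cell cannot be told apart.

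The mesoderm programme rose in the pellet as it did in whole cells. Of 20 tested primitive streak and nascent mesoderm genes, 16 were called higher in PE at day 5 and 17 in INPUT, with a median log2 change of 3.05 in PE and 3.24 in INPUT; the median over all tested genes was 0.05 in PE and -0.09 in INPUT. Over all genes, 568 were called higher in PE (4.32%) and 492 in INPUT (3.74%). Called lower were 4.42% in PE and 4.09% in INPUT. Each list count below is to be read beside these shares. APLNR, the apelin receptor of early mesoderm, had 380 and 482 TPM in PE at day 5, against 1.77 and 3.88 TPM in PE at day 3, and 626 and 597 TPM in INPUT at day 5, against 8.55 and 7.34 TPM in INPUT at day 3. Its PE change was 6.87 ± 0.31 (log2, SE, adjusted p = 0.00023), with no overlap between days. The PE values of day 3 rested on 1 read and 2 reads, so the size of that change is uncertain. HAND1, a transcription factor of lateral plate mesoderm, had 393 and 494 TPM in PE at day 5, against 24.1 and 8.81 TPM in PE at day 3. The change of HAND1 was 4.82 ± 0.45 in PE and 4.63 in INPUT, a difference well within its error (0.19 ± 0.48).

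Other early lineage genes were also higher in the pellet at day 5. TBXT, the streak factor brachyury, had 46.6 and 70.8 TPM in PE at day 5, against 7.18 and 8.54 TPM in PE at day 3 (change 2.73 ± 0.43, adjusted p = 0.0086; INPUT change 3.46). CER1, a secreted inhibitor of NODAL, BMP and WNT, had 497 and 702 TPM in PE at day 5, against 22.1 and 12.1 TPM in PE at day 3, and its change was 5.09 in PE and 4.71 in INPUT. EOMES, a streak and endoderm factor, changed by 3.21 in PE and 2.37 in INPUT, and GATA6, a mesendoderm factor, by 3.05 in PE and 3.45 in INPUT. MESP1, a factor of nascent cardiac mesoderm, had 34.4 and 50.9 TPM in PE at day 5, against 4.98 and 2.74 TPM in PE at day 3, which did not pass the test in PE (adjusted p = 0.080), although its INPUT change did. Of 13 lateral plate and cardiac genes, 7 were higher in PE and 1, the atrial myosin light chain MYL7, was lower (-1.05). HOXB2, a homeobox factor, and HOTAIRM1, a noncoding RNA of the HOXA cluster, were called higher in PE and in INPUT. In PE at day 3 both rested on 1 or 2 reads a library. HOXB2 changed by 3.31 in PE and 5.11 in INPUT, a difference of -1.80 ± 0.49 that did not pass (adjusted p = 0.11).

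Genes of amnion and trophoblast rose alongside. Of 18 tested, 15 were called higher in PE and 17 in INPUT, with medians of 2.35 in PE and 2.36 in INPUT. VTCN1, a surface protein used as an amnion marker, had 30.9 and 53.9 TPM in PE at day 5, against 0.294 and 0.108 TPM in PE at day 3, where it rested on 3 reads and 1 read. GABRP, a GABA receptor subunit, changed by 5.03 ± 0.27 in PE and 5.59 in INPUT, and ISL1, a factor of amnion and cardiac progenitors, by 3.76 in PE. EPAS1, an oxygen-responsive factor, changed by 3.58 in PE. Endoderm genes were called higher for 3 of 6 in PE and 4 of 6 in INPUT. Of 6 endothelial and blood genes, none was higher in PE and 1, the receptor TEK, was lower (-1.30). Of 7 neuroectoderm genes, 1, SOX3, was lower in PE (-1.49).

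**Figure D1:**
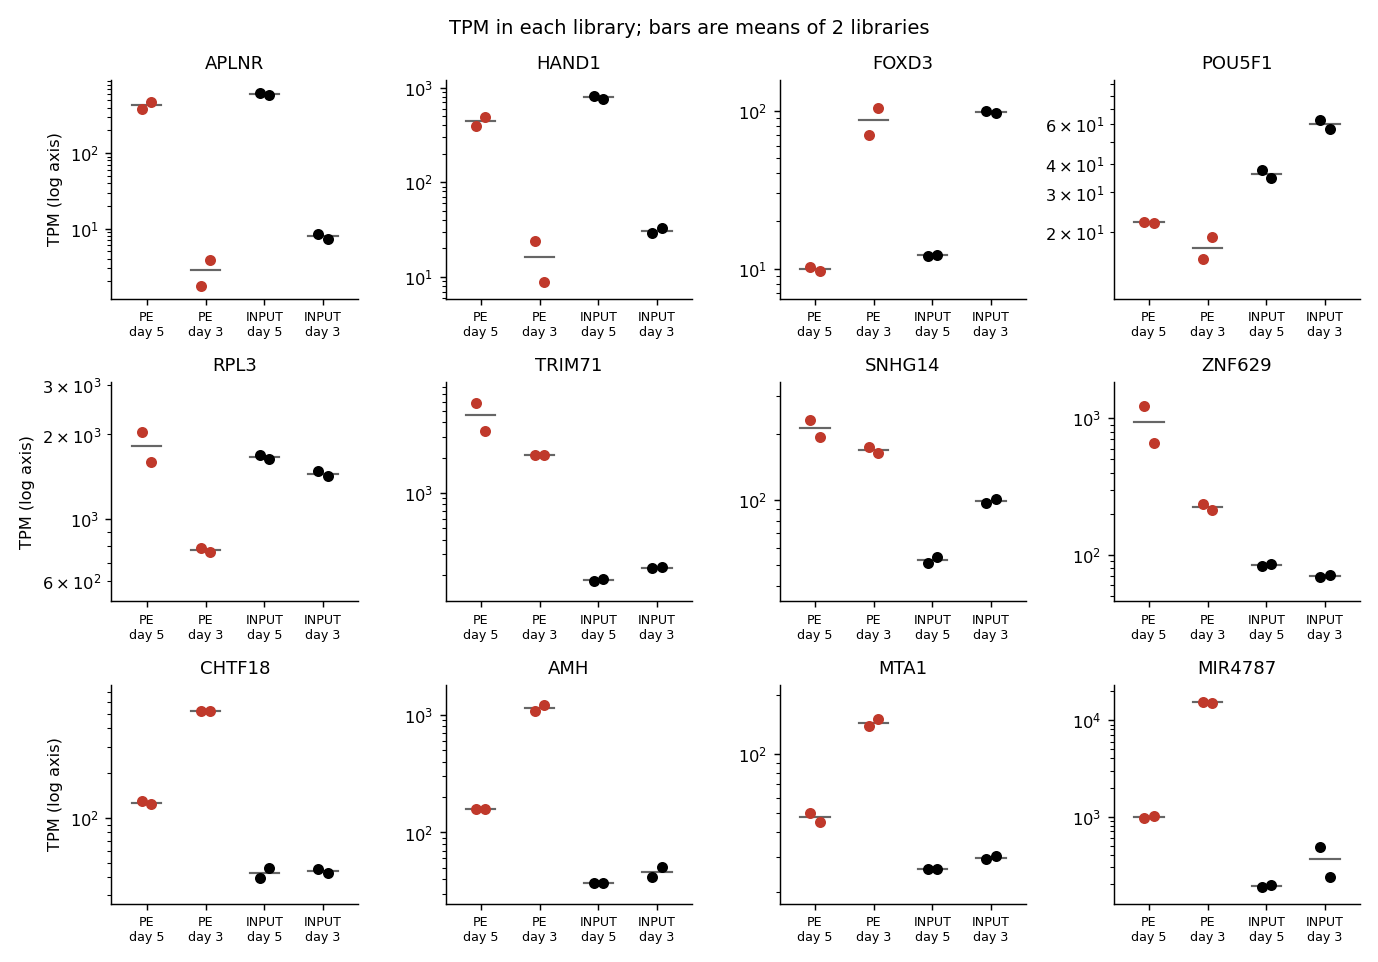
TPM of 12 genes in each library on a log axis, with PE at day 5 and day 3 in red and INPUT at day 5 and day 3 in black; bars are means of 2 libraries. APLNR and HAND1 are far higher at day 5 in both kinds of library, whereas CHTF18, AMH, MTA1 and MIR4787 are lower at day 5 mainly in PE, and RPL3, TRIM71 and ZNF629 are higher at day 5 mainly in PE.

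Pluripotency genes fell in the pellet, with fewer of them called than in whole cells. Of 25 tested, 11 were called lower in PE (4.42% of all tested genes were) and 14 in INPUT (4.09%); the list's median was -0.96 in PE and -1.33 in INPUT, and no member was called different between the changes. FOXD3, a factor of pluripotent cells and neural crest, had 10.3 and 9.69 TPM in PE at day 5, against 69.6 and 104 TPM in PE at day 3, a change of -2.97 ± 0.22 in PE and -2.92 in INPUT. ZSCAN10, a zinc finger factor of embryonic stem cells, changed by -2.08 in PE, PRDM14, a repressor of differentiation, by -1.94, and TDGF1, a NODAL co-receptor, by -1.62. TERT, the catalytic subunit of telomerase, fell by 2.66 in PE.

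The core factor POU5F1 was not called lower in the pellet. It had 22.3 and 22.0 TPM in PE at day 5, against 15.3 and 19.03 TPM in PE at day 3, while INPUT held 37.6 and 34.7 TPM at day 5, against 62.7 and 56.8 TPM at day 3. The PE libraries of day 5 lie above those of day 3, and the INPUT libraries below, yet the PE change of 0.36 ± 0.22 did not pass (adjusted p = 0.37), and the difference between the changes, 1.06 ± 0.24, missed the threshold (adjusted p = 0.061). NANOG, another core factor, had 34.5 and 32.4 TPM in PE at day 5, against 59.4 and 50.5 TPM in PE at day 3 (change -0.70, adjusted p = 0.078); in INPUT it was called lower. LIN28A, an RNA-binding protein of pluripotent cells, had 1488 and 1227 TPM in PE at day 5, against 792 and 748 TPM in PE at day 3; its PE change of 0.81 was under the 2-fold threshold. Among 12 long noncoding RNAs of embryonic stem cells, 5 were lower in PE, LNCPRESS1 the most (-3.37 ± 0.71), and 2, HOTAIRM1 and LINC00458, were higher.

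Of 20 BMP targets and feedback genes, 10 were higher in PE and 9 in INPUT, among them DLX5 (2.79 in PE), a homeobox factor, and the ligand BMP2 (2.62). Of 16 WNT targets and feedback genes, 9 were higher in PE and in INPUT, among them SP5 (3.05), a direct WNT target, the inhibitor DKK1 (3.62) and the receptor LGR5 (3.58). DKK1 had 0 and 2 reads in PE at day 3. NOTUM, an enzyme that inactivates WNT ligands, was lower in PE, at 21.3 and 24.5 TPM at day 5, against 51.6 and 56.0 TPM at day 3. In INPUT NOTUM had 10.7 and 10.5 TPM at day 5, against 7.09 and 8.08 TPM at day 3, and the changes differed by -1.64 ± 0.24 (adjusted p = 0.019). With medians made equal within 20 bins of transcript GC content (GC bins), its difference was -0.67 and its PE change -0.31, and neither was called. Immediate early genes were higher for 5 of 18 in PE and 8 of 18 in INPUT, with EGR1 at 1.31 in PE. In the FGF and ERK feedback list, FGF2 was lower in PE (-1.24), and so was the receptor FGFR3 (-1.55 ± 0.14), whose INPUT change was -0.13; the difference of -1.41 became -1.12 and was not called with GC bins.

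Among 33 extracellular matrix genes, 5 were higher and 4 lower in PE. Fibronectin (FN1) had 1087 and 1344 TPM in PE at day 5, against 301 and 270 TPM in PE at day 3, and changed by 2.08 in PE and 2.11 in INPUT. COL1A1 fell by 1.64 and COL9A3 by 2.43 in PE. The basement membrane genes LAMA5 and AGRN were called lower in PE and against INPUT, but neither call held with GC bins. LAMA5 had 277 and 283 TPM in PE at day 5, against 723 and 749 TPM at day 3, while in INPUT it had 110 and 110 TPM at day 5, against 87.2 and 85.8 TPM at day 3. AGRN had 219 and 212 TPM in PE at day 5, against 766 and 790 TPM in PE at day 3, with a PE change of -1.85 and an INPUT change of -0.24. The differences were -1.74 for LAMA5 and -1.60 for AGRN, and -0.77 and -0.63 with GC bins.

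Cytoskeletal lists bear on the name of the fraction. Of 10 tubulin genes and 26 genes of the centrosome, spindle and motor proteins, none was called in PE or in INPUT. Of 37 actin cytoskeleton and linker genes, 1 was lower in PE, the actin crosslinker FLNC (-1.39), and 3 were lower in INPUT. Over all tested genes 4.42% were lower in PE and 4.09% in INPUT. The PE counts lie near the PE share, and the actin count in INPUT lies above the INPUT share. Beta-actin (ACTB) had 585 and 585 TPM in PE at day 5, against 635 and 594 TPM in PE at day 3. TUBA1B, an alpha-tubulin, had 1164 and 1351 TPM in PE at day 5, against 1271 and 1083 TPM in PE at day 3. Vimentin (VIM) had 508 and 481 TPM in PE at day 5, against 813 and 866 TPM in PE at day 3, a change of -0.76 that stayed under 2-fold. Of 17 intermediate filament and desmosome genes, 5 were higher in PE and 6 in INPUT. KRT7 and KRT19, keratins of simple epithelia, changed by 2.98 and 2.17 in PE, and desmoplakin (DSP) by 1.42. The YAP-responsive gene CCN2 fell by 1.92 in PE.

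**Figure D2:**
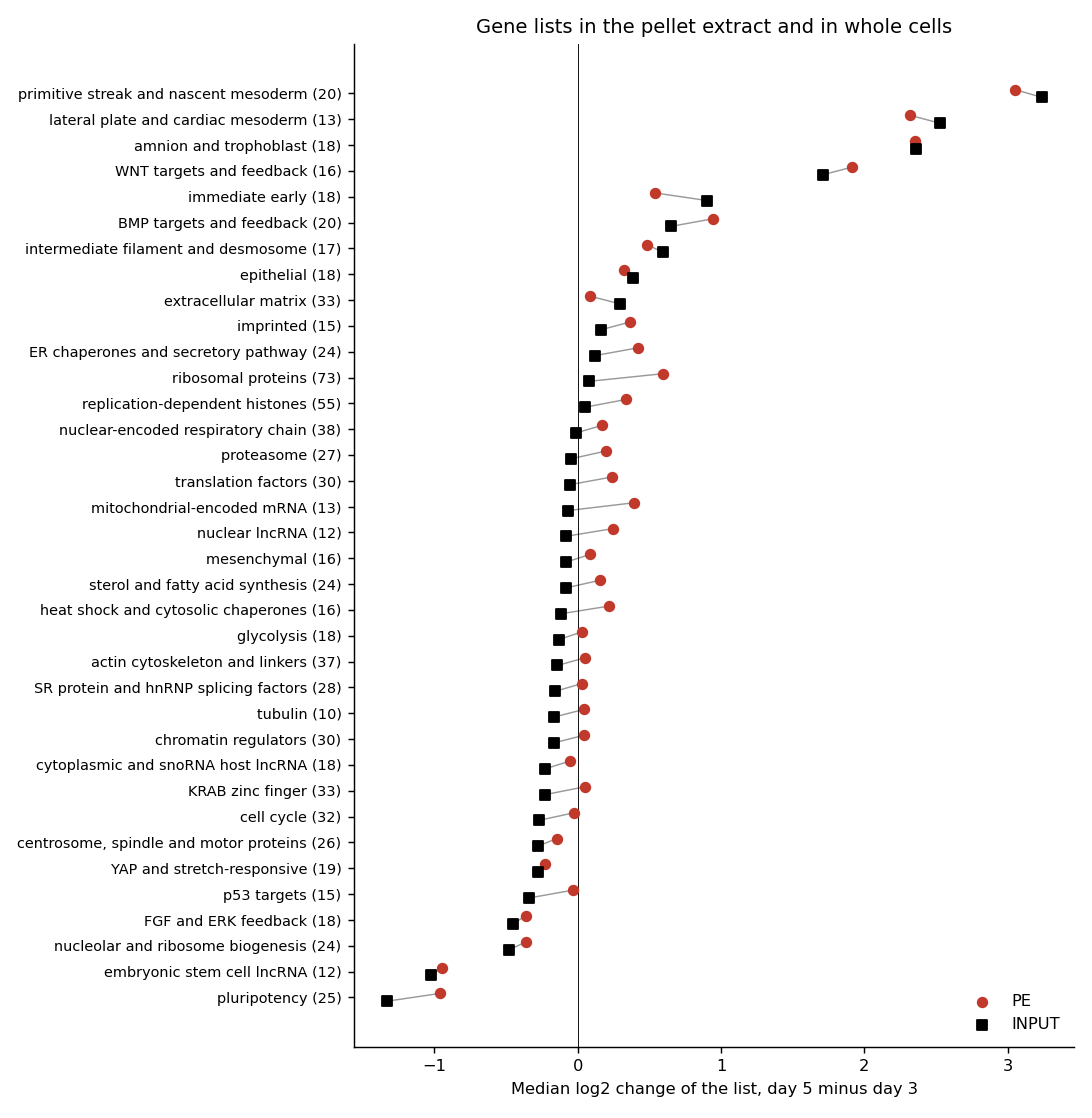
Median log2 change, day 5 minus day 3, of each gene list with at least 10 tested genes (number in brackets), in PE (red circles) and INPUT (black squares), ordered by the INPUT median. The primitive streak list lies at 3.05 in PE and 3.24 in INPUT, the pluripotency list at -0.96 in PE and -1.33 in INPUT, and the ribosomal protein list at 0.60 in PE and 0.08 in INPUT.

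Gene by gene, rises were shared more often than falls. The 11158 tested genes with a mean of 10 or more rebuilt reads in PE are used for this, a minimum chosen after the data were seen. Of these, 497 were called higher in PE (4.45%) and 410 in INPUT (3.67%), and 309 were higher in both, which is 62.2% of the PE list and 75.4% of the INPUT list. Lower in PE were 550 (4.93%) and lower in INPUT 426 (3.82%), with 168 lower in both, 30.6% of the PE list and 39.4% of the INPUT list. None of them was called in opposite directions. Over all 13148 genes 3 were, MIR499B, MIR4675 and DAZAP2P1, each at a mean under 1 read in PE. Across the 11158 genes, which are not independent replicates, the PE and INPUT changes had a Pearson r of 0.737.

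The difference between the changes, PE minus INPUT, was tested directly. Over all genes, 102 were called higher (0.776%) and 222 lower (1.69%); 2057 had an unadjusted p under 0.05. In the genes with 10 or more reads, 66 were called higher (0.592%) and 211 lower (1.89%), with a median difference of 0.19. Of the 211, 183 were also called lower in PE itself. When the library medians were made equal, the split became 27 higher and 157 lower over all genes. When medians were made equal within 20 bins of transcript GC content, it became 14 higher and 18 lower. On rebuilt reads with voom it was 38 higher and 624 lower. The counts rested on both PE libraries of day 3: without replicate 1 they were 18 higher and 6 lower, and without replicate 2 they were 7 and 2, in fits that take the lone library to vary like the other PE libraries. For the PE change itself, they were 193 higher and 94 lower without day 3 replicate 1, and 148 and 73 without replicate 2. Without day 5 replicate 1, 866 were higher in PE, and without day 5 replicate 2, 924 were lower in PE and 173 had a higher difference.

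**Figure D3:**
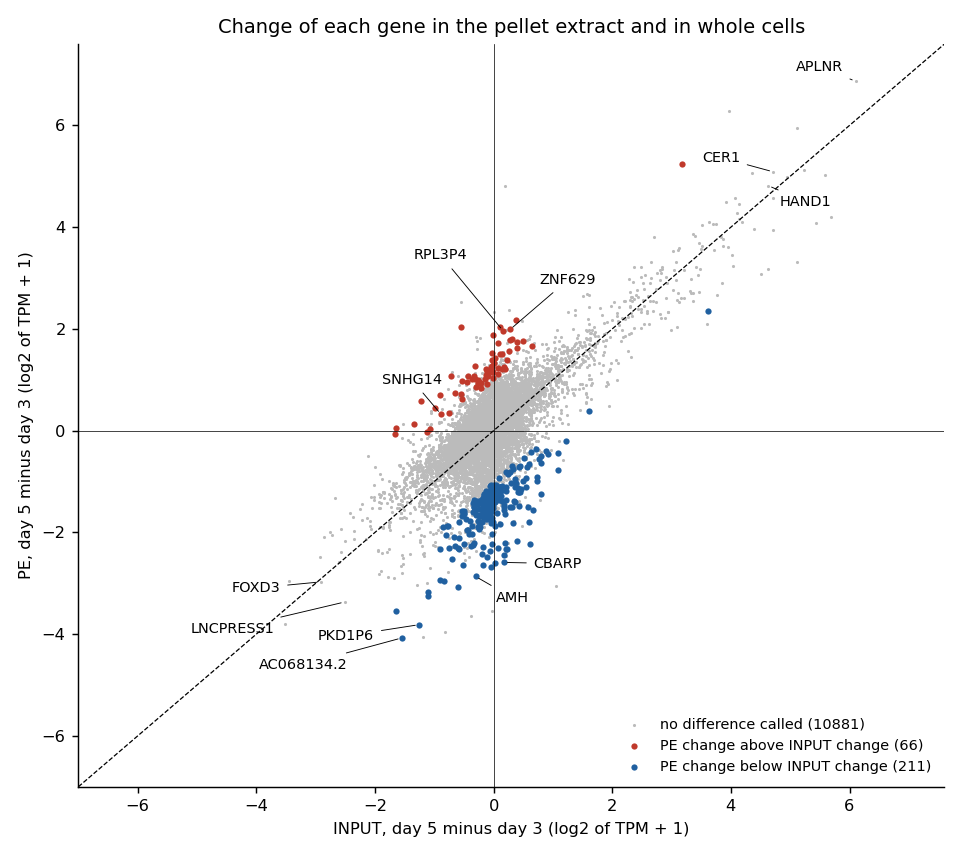
Log2 change of each of 11158 genes, day 5 minus day 3, in PE (vertical axis) against INPUT (horizontal axis); the dashed line marks equal changes. Genes whose changes differ are red (66, PE above INPUT) or blue (211, PE below INPUT), and APLNR, CER1, HAND1 and FOXD3 lie near the line.

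The genes lower in the pellet than whole cells accounted for were GC-rich. The 211 had a median transcript GC of 64.8% (40.3% to 73.9%), against 48.2% for the 66 higher ones. Of the 211, 170 fell in the top GC decile of the 11158 genes, from 61.6% to 83.9% GC. That decile also held 289 of the 550 genes lower in PE, but 55 of the 426 lower in INPUT. The median PE change was 0.12 to 0.16 in the 6 lower GC deciles, -0.21 in the ninth and -0.73 in the tenth. The median INPUT change lay between -0.14 and -0.04 in every decile.

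The same shift can be read from each library. Genes of the top GC decile took 11.8% and 9.77% of the summed TPM of these genes in PE at day 5, against 21.0% and 24.0% in PE at day 3; PE at day 0 stood at 26.9% and 30.1%. INPUT held 9.49% and 9.07% at day 5, against 9.14% and 8.87% at day 3. The days do not overlap in PE, and PE at day 5 lies near INPUT. Such shares lean on a few abundant loci. MIR4787, MIR3648-2 and CR392039.1, short miRNA loci, alone took 4.62% and 7.16% of all summed TPM in PE at day 3. At day 5 they took 0.610% and 0.380% in PE. The medians by decile do not lean on single loci. Within day 5 the PE libraries differed too: the median log2 level of the top decile less that of the lowest was 0.63 in replicate 1 and 0.02 in replicate 2, against 1.11 and 1.25 in PE at day 3. CBNE, the fraction extracted just before, moved the same way and further, at 23.4% and 24.1% at day 5, against 38.8% and 43.4% at day 3. The CBNE libraries were shallower than those of PE on both days. CE, ME and SNE had median changes between -0.02 and 0.12 in the top decile. SNE was also lower at high GC, with a median of -0.02 in the top decile against 0.31 in the lowest. The same medians were 0.09 against 0.10 in CE and 0.12 against 0.20 in ME.

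Library identity moves with day in these groups. Both PE libraries of day 5, with CBNE and SNE of day 5, carry library numbers from a later block than PE at day 3, all INPUT libraries and CE at day 5, so for PE the day and the number block cannot be told apart. ME at day 5 has 1 library in each block. Its later library less its earlier one had a median of -0.13 in the top GC decile and 0.09 in the lowest, against -0.27 and 0.02 between the ME libraries of day 3, which share a block. In PE the same replicate difference was -0.05 and 0.55 at day 5, and 0.03 and -0.10 at day 3. The part of the number block in the PE change was not tested further.

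**Figure D4:**
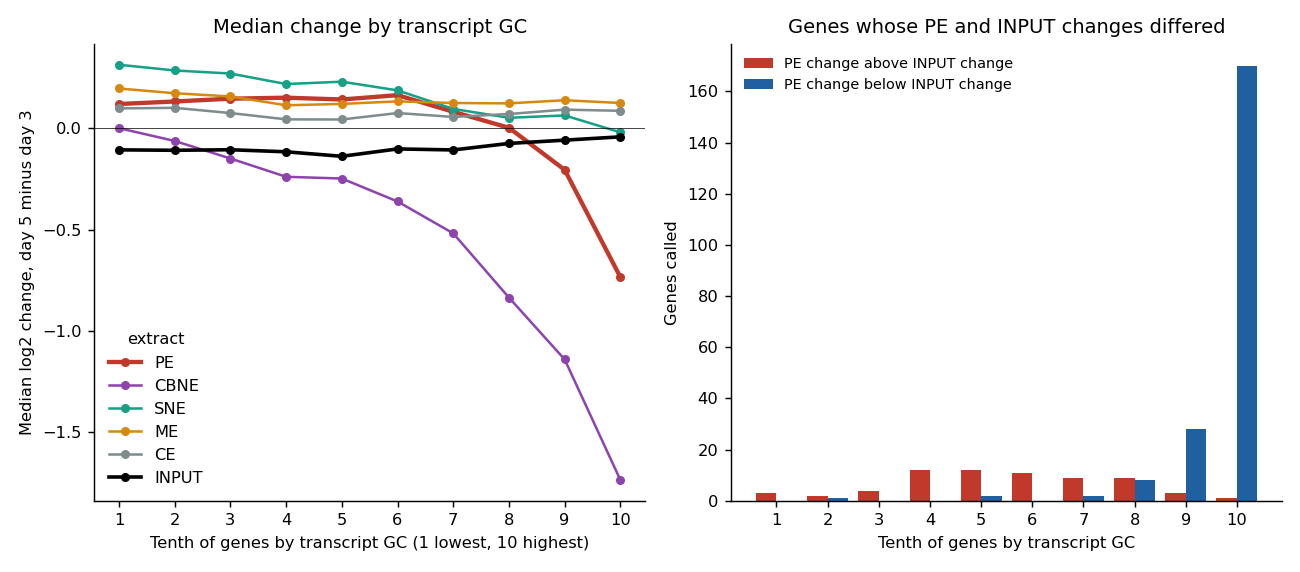
Left, median log2 change, day 5 minus day 3, in deciles of 11158 genes by transcript GC, for PE, CBNE, SNE, ME, CE and INPUT. Right, genes called different between PE and INPUT in each decile; the top decile holds 170 of the 211 lower genes, and the PE line falls to -0.73 there while the INPUT line stays at -0.04.

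Several of the largest falls were in small, GC-rich protein-coding genes. AMH, the hormone of Müllerian duct regression, lies on chromosome 19 (GRCh38, bases 2249309 to 2252073, forward strand) and has 73.1% GC. It had 157 and 157 TPM in PE at day 5, against 1094 and 1212 TPM in PE at day 3, and 37.0 and 37.0 TPM in INPUT at day 5, against 41.5 and 51.0 TPM in INPUT at day 3. The changes differed by -2.56 ± 0.27 (adjusted p = 0.0078). In PE at day 0 AMH had 910 and 646 TPM, and in CBNE 358 and 300 TPM at day 5, against 1709 and 1699 TPM at day 3. CHTF18, a subunit of a clamp loader for sister chromatid cohesion, had 129 and 124 TPM in PE at day 5, against 526 and 521 TPM in PE at day 3, with 39.6 and 45.9 TPM in INPUT at day 5, against 45.3 and 42.2 TPM in INPUT at day 3. The INPUT values of CHTF18 overlap between the days and the PE values do not, and the changes differed by -2.005 ± 0.23. With GC bins the differences were -1.59 for AMH and -1.04 for CHTF18, neither called.

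The other leading genes were lower in PE at day 5 too. With GC bins MFSD3 alone of the 12 largest called lower differences was still called. These were ranked among genes with 10 reads or more and 20 TPM or more whose PE libraries did not overlap between days. CBARP, a regulator of calcium channels, had 30.9 and 25.9 TPM in PE at day 5, against 161 and 191 TPM in PE at day 3, and its INPUT change was 0.17. RHBDL1, a rhomboid protease, SLC22A31, a transporter of the organic ion family, and MFSD3, a membrane transporter, differed by -2.62, -2.62 and -2.57. ANTKMT, a mitochondrial lysine methyltransferase, IDUA, the lysosomal enzyme iduronidase, and MAMDC4 differed by -2.55, -2.52 and -2.47. PKD1P6, a pseudogene of the polycystin gene PKD1, had 10.2 and 8.16 TPM in PE at day 5, against 154 and 130 TPM in PE at day 3; near-identical copies could share its reads. Among noncoding genes, AC068134.2 had 87.1 and 79.9 TPM in PE at day 5, against 1459 and 1386 TPM in PE at day 3, and AC139426.1 differed by -2.64. LINC01578 was the exception in composition, with 40.3% GC, and had the largest difference in that ranking (-2.84 ± 0.46). It had 15.5 and 6.15 TPM in PE at day 5, against 44.7 and 55.5 TPM in PE at day 3.

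Beside NOTUM, FGFR3, LAMA5 and AGRN, 9 members of the gene lists had a lower difference. FOSL1, a subunit of the AP-1 factor, had 57.3 and 43.9 TPM in PE at day 5, against 215 and 205 TPM in PE at day 3, and differed by -1.25. The others were the glycolytic enzyme PFKL (-1.61), the lactate exporter SLC16A3 (-1.42), the sterol regulator SREBF1 (-1.12) and fatty acid synthase, FASN (-1.01). The splicing factor PTBP1 (-1.12), the apoptosis gene BBC3 (-1.08), the nucleolar protein BOP1 (-1.62) and the snoRNA host SNHG7 (-1.24) were lower too. FASN had 1215 and 1282 TPM in PE at day 5, against 2033 and 2022 TPM in PE at day 3, and 819 and 783 TPM in INPUT at day 5, against 664 and 629 TPM in INPUT at day 3. With medians made equal in GC bins, PFKL alone of the 13 was still called (-1.01); the differences became -0.04 for FASN, -0.11 for BBC3, -0.27 for SNHG7, -0.65 for BOP1, -0.51 for SREBF1 and -0.81 for SLC16A3, and the PE change of FASN became 0.19.

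With medians made equal within GC bins, 13 of the 211 genes with a lower difference were still called, and none of the 66 with a higher one. RPL35 and ZNRD2 were called higher under that setting alone. A lost call did not always mean a smaller difference. It went from -2.84 to -3.06 for LINC01578 and from 1.71 to 1.90 for ZNF629, but from -2.56 to -1.59 for AMH. Over all genes, 2045 differences had an unadjusted p under 0.05 (limma) under that setting, against 2057 in the main fit. With library medians made equal, 122 of the 211 and 3 of the 66 were still called. MTA1, a subunit of the NuRD chromatin complex, had 50.3 and 45.3 TPM in PE at day 5, against 138 and 150 TPM in PE at day 3, with 26.2 and 26.1 TPM in INPUT at day 5, against 29.4 and 30.2 TPM in INPUT at day 3. Its difference was -1.39 ± 0.17 before and -1.10 after. TSC2, which restrains mTORC1, differed by -1.43 before and -1.14 after. INPP5E, a lipid phosphatase of cilia, PIGQ, an enzyme of GPI anchor synthesis, PACS2, a sorting protein, RHPN1, MFSD3 and PFKL were among the others. Under the same setting 411 of the 497 genes higher in PE and 321 of the 550 lower in PE were still called.

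Low pellet values at day 5 were also seen at very short, GC-rich loci, on few reads. MIR4787 is an 84-base hairpin gene on chromosome 3 (GRCh38, bases 50675080 to 50675163, forward strand) with 79.8% GC. It had 958 and 1003 TPM in PE at day 5, from 15 and 25 reads, against 15567 and 15113 TPM in PE at day 3, from 198 and 175 reads. The days do not overlap, and INPUT had 187 and 194 TPM at day 5, against 486 and 233 TPM at day 3. The PE change of -3.97 ± 1.00 did not pass the test (adjusted p = 0.078). MIR3187 had 153 and 193 TPM in PE at day 5, from 2 and 4 reads, against 2453 and 1658 TPM in PE at day 3, from 26 and 16 reads. Its change was called in PE (-3.55 ± 0.30) and against INPUT (-1.90 ± 0.32); with GC bins the difference was -0.93 and not called. MIR3187 lies within PLPPR3, which runs on the opposite strand and was itself lower in PE (-1.69), and whether strand was used in counting is not given in the sources used here. The values are reads of total RNA over these loci, not of mature miRNAs. The mature sequences are shown for their composition, from RefSeq on GRCh38.p14, 5′ to 3′, with the seed (bases 2 to 8) in capitals; the 5 seeds all differ.
hsa-miR-4787-5p, chr3:50675093-50675114 (+): gCGGGGGUggcggcggcauccc
hsa-miR-4787-3p, chr3:50675130-50675153 (+): gAUGCGCCgcccacugccccgcgc
hsa-miR-3187-5p, chr19:813590-813612 (+): cCUGGGCAgcguguggcugaagg
hsa-miR-3187-3p, chr19:813627-813646 (+): uUGGCCAUggggcugcgcgg
hsa-miR-3648, chr21:8987026-8987046 (+): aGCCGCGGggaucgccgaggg

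MIR3648-2, whose mature form is the last of these, and the neighbouring 61-base miRNA annotation CR392039.1 have near-identical copies inside ribosomal DNA units on chromosome 21, so their reads could be split. CR392039.1 had 3871 and 2485 TPM in PE at day 5, against 26308 and 49947 TPM in PE at day 3, and 42086 and 72737 TPM in PE at day 0. It was called lower in PE (-3.55 ± 0.71) but not against INPUT (-3.53 ± 0.75, adjusted p = 0.10). FP236383.3, which spans a 45S ribosomal RNA unit, had 4557 and 2066 TPM in PE at day 5, against 10002 and 11688 TPM in PE at day 3, a change of -1.82 ± 0.37. In INPUT it had 160 to 187 TPM, but the difference of -1.69 did not pass (adjusted p = 0.095), and the PE call was lost with library medians made equal.

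These loci weighed on whole RNA classes. miRNA genes took 1.29% and 0.940% of the summed TPM in PE at day 5, against 5.68% and 8.10% in PE at day 3, and MIR4787, MIR3648-2 and CR392039.1 alone took 0.610% and 0.380%, against 4.62% and 7.16%. The 45S unit genes took 0.764% and 0.485% at day 5, against 1.84% and 2.26% at day 3, and snoRNA genes 1.84% and 1.25%, against 2.35% and 2.95%. At day 0 the PE libraries held 5.51% and 7.65% of 45S unit genes and 10.4% and 11.3% of snoRNA genes. Both PE shares were thus lower at day 3 than at day 0 and lower again at day 5. CBNE moved the other way from day 3 to day 5. There the 45S unit genes took 8.35% and 6.55% at day 5, against 3.15% and 2.42% at day 3. For snoRNA genes CBNE held 24.7% and 22.1% at day 5, against 6.11% and 4.90% at day 3. In INPUT the 45S unit genes took at most 0.0328% and snoRNA genes at most 0.256% on days 3 and 5. The pellet thus held RNA of the nucleolus on both days. Groups of 2 libraries allow no exact permutation p under 0.05, so class shares are given as values.

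**Figure D5:**
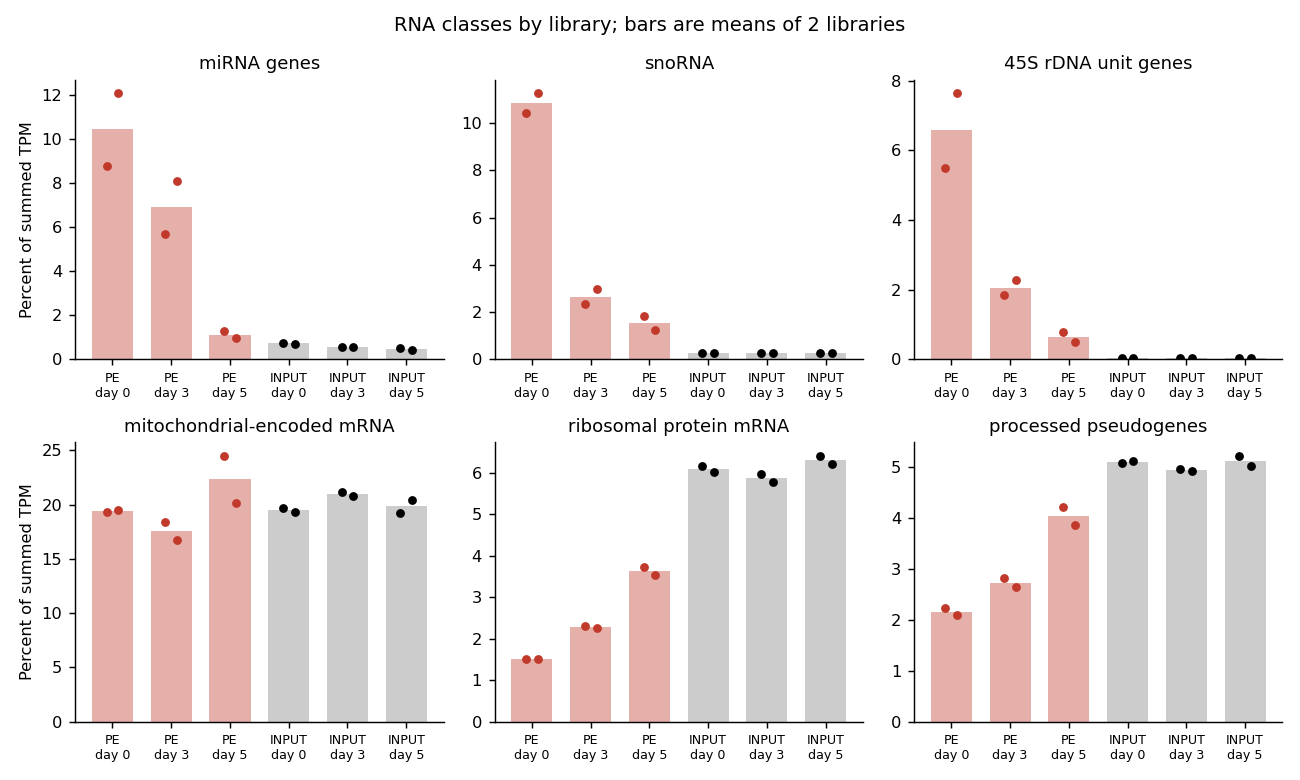
Share of summed TPM, in percent, of 6 RNA classes in PE and INPUT at days 0, 3 and 5; bars are means of 2 libraries and points are libraries. In PE, miRNA, snoRNA and 45S unit shares are lower at each later day and ribosomal protein mRNA and processed pseudogene shares are higher, while INPUT shares stay nearly level.

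Some ribosomal protein mRNAs were higher in the pellet at day 5. Of 73 tested, 8 were called higher in PE and 1 in INPUT, and 6 had a higher difference. Over all tested genes the shares were 4.32% in PE, 3.74% in INPUT and 0.776% for a higher difference. The list's median change was 0.60 in PE, 0.08 in INPUT and 0.52 for the difference. With medians made equal in GC bins, none of the 6 was still called, 1 other, RPL35, was, and the median was 0.36; with library medians made equal none was called and the median was 0.42. RPL3, a large-subunit protein, had 2047 and 1591 TPM in PE at day 5, against 785 and 764 TPM in PE at day 3, and 1687 and 1637 TPM in INPUT at day 5, against 1479 and 1420 TPM in INPUT at day 3. RPS6, the S6 kinase substrate, had 1262 and 1124 TPM in PE at day 5, against 543 and 527 TPM in PE at day 3, with 1334 and 1329 TPM in INPUT at day 5, against 1330 and 1340 TPM in INPUT at day 3. In both genes the PE libraries of day 5 are above those of day 3, and for RPS6 the INPUT values overlap between the days. RPL10, RPS27A, RPS28 and FAU, the ubiquitin-like fusion that yields RPS30, differed by 1.08, 1.15, 1.07 and 1.03.

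Summed over the list, ribosomal protein mRNA took 3.73% and 3.54% of TPM in PE at day 5, against 2.31% and 2.26% in PE at day 3; INPUT stood at 6.40% and 6.19% at day 5, against 5.97% and 5.77% at day 3. The elongation factor EEF1A1 had 9735 and 8191 TPM in PE at day 5, against 4359 and 4080 TPM in PE at day 3, a change of 1.08 ± 0.13. EEF1B2, which recharges it with GTP, differed by 1.18 ± 0.17. Processed pseudogenes moved with these mRNAs, at 4.21% and 3.86% in PE at day 5, against 2.81% and 2.65% in PE at day 3. They made up 12 of the 66 genes with a higher difference, among them RPL3P4 (1.81), RPS3AP6 (1.89) and EIF4BP3 (1.51), whose reads could come from the genes they copy.

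MT-CO1, the mitochondrial mRNA of cytochrome oxidase subunit 1, had the highest mean level of the tested genes in PE, with 57642 and 50687 TPM in PE at day 5, against 48883 and 45031 TPM in PE at day 3. Mitochondrial-encoded mRNA took 24.5% and 20.2% of TPM in PE at day 5, against 18.5% and 16.7% in PE at day 3, and 19.2% and 20.5% in INPUT at day 5, against 21.2% and 20.8% in INPUT at day 3. The PE libraries of the 2 days do not overlap, but none of the 13 genes was called, with a median change of 0.39 in PE and -0.06 in INPUT. Nuclear protein-coding genes took 53.6% and 59.2% in PE at day 5, against 54.6% and 53.3% in PE at day 3, which overlap. The signal recognition particle RNA gene RN7SL3 and the U3 RNA gene SNORD3A were among the 10 highest genes on both days, and neither passed the test in PE.

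A few genes were far more abundant in the pellet than in whole cells, and more so at day 5. TRIM71, a ubiquitin ligase and RNA-binding protein of early embryos, lies on chromosome 3 (GRCh38, bases 32818018 to 32897826, forward strand). It had 5842 and 3379 TPM in PE at day 5, against 2111 and 2090 TPM in PE at day 3, and 406 and 346 TPM in PE at day 0. INPUT had 179 and 186 TPM at day 5, against 227 and 232 TPM at day 3, and the changes differed by 1.41 ± 0.25 (adjusted p = 0.030). With GC bins the difference was 1.09 and the PE change 0.87, neither called. In CBNE it had 2140 and 2014 TPM at day 5, against 739 and 702 TPM at day 3, while CE, ME and SNE held 115 to 297 TPM at day 5. The zinc finger gene ZNF629 had 1224 and 654 TPM in PE at day 5, against 236 and 214 TPM in PE at day 3, and 58.1 and 42.2 TPM at day 0, with 83.2 and 86.5 TPM in INPUT at day 5, against 68.8 and 70.8 TPM at day 3. Its difference was 1.71 ± 0.29 (1.90 and not called with GC bins). ZNF778, of the same class, differed by 1.55.

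In some other genes whole-cell levels were lower at day 5 and pellet levels were not. In others, named last, the pellet rise was itself called and the INPUT change was not. SNHG14, the long host transcript of the imprinted snoRNA cluster on chromosome 15, had 231 and 194 TPM in PE at day 5, against 175 and 163 TPM in PE at day 3, with 51.0 and 54.1 TPM in INPUT at day 5, against 96.1 and 100.2 TPM in INPUT at day 3; the changes differed by 1.21 ± 0.17 (0.87 and not called with GC bins). AC125807.2 and CYP4F26P differed by 1.602 and 1.80, with INPUT changes of -0.91 and -0.72 that were under 2-fold. AC016999.2, BX679664.3 and AC010503.5 differed by 2.59, 1.93 and 1.80 and were themselves called higher in PE (2.04, 2.04 and 2.17), with INPUT changes of -0.56, 0.11 and 0.37.

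Ranked by size over all tested genes at 20 TPM or more, 16 of the 24 largest differences rested on a mean under 10 reads in PE. TRBJ2-7, a T cell receptor joining segment, had no reads in PE at day 5, against 5 and 4 reads in PE at day 3, and AC027309.2 had 5 and 12 reads at day 5, against none at day 3. Such genes were also 11 of the 20 largest PE changes.

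Changes were also set out by length, in wider groups and over more genes than by GC content, so the sizes are not compared. In quartiles of the 13148 genes by annotated exon length, the median difference was 0.18, 0.14, 0.17 and 0.23 from shortest to longest. By genomic span, which scales the TPM values, it was 0.11, 0.09, 0.17 and 0.26. PE over INPUT itself was higher for long transcripts on both days, with medians of 0.16, 0.09, 0.34 and 0.56 (log2) at day 5, against 0.00, 0.02, 0.19 and 0.32 at day 3.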

How the data were processed

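The authors deposited 1 table of TPM values for the 36 total RNA libraries; HISAT2 2.0.5, GATK, featureCounts 1.6.2, Salmon 1.3.0 and the genome hg38 are named, without roles, per the submitters' processing notes. All 57939 gene IDs matched GENCODE 29. Multiplying TPM by a gene's genomic span gave whole reads (within 0.01, values up to 50 reads) for 98.3% to 98.7% of values, against 1.8% to 2.7% with exon length, so TPM is per span here; whether intronic reads were counted is not given in the sources used here. The rebuilt reads give the depths. Intervals on single genes come from the fit; with 2 libraries a group they are wide.

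Genes with a mean of 5 TPM or more in the 4 PE libraries entered 1 limma 3.58.1 fit (R 4.3.3) of log2(TPM + 1) over 8 libraries (4 residual degrees of freedom), with 1 weight for PE and 1 for INPUT, a mean-variance trend and robust variances. A fold is on the log2(TPM + 1) scale, which understates low genes. The p-values were adjusted over the tested genes by the Benjamini-Hochberg method, and a call also needed a log2 change of 1 or more either way, at an adjusted level of 0.05. GC content is of each gene's longest GENCODE transcript. The fit was tested on simulated data. Named genes were the 12 largest differences and 10 largest PE changes in each direction at 20 TPM (repeated at 10 reads after the data were seen), called list members, the most abundant genes and a few fixed ones. The comparison, the 44 gene lists and the rule were chosen with earlier results of these data known. Alternatives were other pseudocounts, filters, weights, scalings, sample sets, a replicate block and leaving out each library, and, chosen after seeing the data, voom on rebuilt reads, a 10-read filter and equal medians in 20 GC bins. A few results that met the naming rule are not reported here. The polyA libraries were not used here. Python 3.11.15 with pandas 2.3.3 made the summaries.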

Additional observations from a re-analysis of the deposited data

Results flagged for a closer look

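Each gene here was flagged because its change over the same days differed between PE and INPUT by the test of the difference itself; values are log2 PE change minus INPUT change.

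Lower in PE among the largest differences with 10 reads or more were LINC01578 (-2.84), CBARP (-2.76), AC139426.1 (-2.64), RHBDL1 (-2.62), SLC22A31 (-2.62), MFSD3 (-2.57), AMH (-2.56), PKD1P6 (-2.55), ANTKMT (-2.55), AC068134.2 (-2.52), IDUA (-2.52), MAMDC4 (-2.47) and, chosen after its values were seen, CHTF18 (-2.005). MIR3187 (-1.90) rests on 2 to 26 reads a library. List members were LAMA5 (-1.74), NOTUM (-1.64), BOP1 (-1.62), PFKL (-1.61), AGRN (-1.60), SLC16A3 (-1.42), FGFR3 (-1.41), FOSL1 (-1.25), SNHG7 (-1.24), PTBP1 (-1.12), SREBF1 (-1.12), BBC3 (-1.08) and FASN (-1.01). Others still called with equal medians in GC bins, named after their values were seen, were PIGQ (-2.39), RHPN1 (-2.30), INPP5E (-1.80), PACS2 (-1.48), TSC2 (-1.43) and MTA1 (-1.39).

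Higher in PE among the largest differences were AC016999.2 (2.59), BX679664.3 (1.93), RPS3AP6 (1.89), RPL3P4 (1.81), CYP4F26P (1.80), AC010503.5 (1.80), ZNF629 (1.71), AC125807.2 (1.602), ZNF778 (1.55) and EIF4BP3 (1.51). List members were SNHG14 (1.21), EEF1B2 (1.18), RPS6 (1.16), RPS27A (1.15), RPL10 (1.08), RPS28 (1.07), FAU (1.03) and RPL3 (1.02), and TRIM71 (1.41) was named after its values were seen. TRBJ2-7 (-9.25) and AC027309.2 (7.37) have no reads in PE on 1 of the days; their values depend on the pseudocount and are no bound on the change.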

How the results depend on the processing

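All 165 called values of single named genes kept their direction under every alternative run. Other filters, weights and sample sets and the replicate block leave a log2 change as it is, so they could not have turned one. Genes named for the size of their change also had PE libraries that do not overlap between days. For those, leaving out 1 library could not reverse the PE change. Counts moved by over 1.5 times as follows. Genes higher in PE numbered 338 at a mean of 20 TPM, 361 with all 36 libraries and 148 to 866 leaving out 1 library; genes lower in PE numbered 897 without sample weights, 1090 with voom and 73 to 924 leaving out 1 library. Genes higher in INPUT numbered 740 at a mean of 1 TPM, 222 at 20 TPM and 791 with no filter, and genes lower in INPUT 250 with a pseudocount of 5 and 250 at 20 TPM. Higher differences numbered 62 at 1 TPM, 38 with all 36 libraries, 27 with a common median and 38 with voom. Higher differences numbered 14 with equal medians in GC bins and 7 to 173 leaving out 1 library. Lower differences numbered 104 with all 36 libraries, 624 with voom and 18 with GC bins. Lower differences numbered 376 in a fit of only the 11165 genes with 10 reads or more, and 2 to 323 leaving out 1 library. The causes were not tested.

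The labels number the replicates and do not say whether libraries of the same number are paired, so the main fit used no pairing. With the replicate number as a block, which leaves fewer residual degrees of freedom, 221 genes were higher and 206 lower in PE, and 5 had a higher and 3 a lower difference. Of 59 named differences, 44 were no longer called with GC bins, 28 with a common median and 52 with the block.

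Without mitochondrial genes in the total, the PE share at day 5 less that at day 3 was 1.58 percentage points for lncRNA, 8.08 for nuclear protein-coding genes and 2.01 for processed pseudogenes. Leaving out 1 library gave -0.409 to 5.22 points for nuclear protein-coding genes, negative only without PE day 5 replicate 2. The shallow PE libraries limit short and weakly expressed genes most, where 1 read moves the TPM by several units.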
